A study of Arabidopsis thaliana with 36 samples.

Results

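Transcript levels of 8 Arabidopsis thaliana genes of salicylate and pattern-triggered immunity were followed in seedlings under endoplasmic reticulum (ER) stress and in double mutants of the unfolded protein response (UPR). The genes were chosen by name, with earlier results of these data known, and the counts of all transcript models of each locus were added: the signalling genes EDS1 and PAD4, the salicylate-responsive genes PR1, PR2, PR5 and PNP-A, and the pattern-response genes NHL10 and FRK1. They are 8 of the 37336 loci counted. PAD4, PR5, NHL10 and FRK1 had enough reads to be among the 10480 genes tested. The other 4 were too low and are given as counts.

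Plants sense microbes at the cell surface through receptor kinases that bind conserved microbial patterns, and kinase cascades then switch on early genes such as FRK1 and NHL10. A second layer runs through EDS1 and PAD4, lipase-like proteins that form a complex and promote the synthesis of salicylate, and salicylate acting through NPR1 switches on the pathogenesis-related (PR) genes. When misfolded proteins build up in the ER, where immune receptors and secreted PR proteins are also folded, the UPR changes transcription. Its factors bZIP17 and bZIP28 sit in the ER membrane until they move to the Golgi and are cut by the proteases S1P and S2P, and active bZIP60 comes from an mRNA that IRE1 splices.

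Whole seedlings aged 12 days lay in water with an inducer or the DMSO solvent (mock) for 6 h, and their RNA was sequenced from the 3' end. The mutants bzip17/28, bzip28/60, bzip17/60 and s1p/s2p, each described by the labels as a double knockout, received mock or tunicamycin (Tm), which stops N-glycosylation, at 5 µg/ml. Wild type (WT) received the disulfide-reducing agent dithiothreitol (DTT) at 2 mM, Tm at the same dose, L-azetidine-2-carboxylate (AZC, 5 mM, a proline analogue) or mock. There were 12 groups with 3 libraries apiece, which makes 36. Nothing in the labels ties a repeat to its own culture of seedlings, so the p-values here cover the spread among these libraries and that spread may be technical.

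Libraries held 1278322 to 2810235 assigned counts. Reads on no feature came to 3.24 to 6.32% in WT libraries and 2.69 to 3.48% in mutant libraries. The part of this difference in comparisons of mutants with WT was not tested. BZIP17 had 0 to 3 counts per library in the lines named for it, against 5 to 33 in the others. BZIP60 stood at 25.9 to 37.5 CPM (counts scaled to a common library size with TMM factors) in the lines named for it, against 114 to 1880 CPM in the others. BZIP28 had 0 or 1 counts in bzip17/28 but 23 to 30 in bzip28/60. Those libraries were at 8.95 to 14.55 CPM, below the 19.9 to 49.1 CPM of the lines not named for it, so its RNA was lower but not absent. S1P and S2P had 0 or 1 counts in every library. A full loss of BZIP28 in bzip28/60 and the loss of S1P and S2P were therefore not checked by these reads, which come from the 3' end. Both parts of a whole seedling were detected: 8 root markers summed to 12.7 to 224 CPM per library, and 8 green shoot markers summed to 10000 to 17840 CPM, with GLK1 at 0 or 1 counts. Library 1 of WT Tm weighed on the tests of Tm responses: without it the genes whose Tm response differed from WT numbered 992 to 1190 per mutant, against 200 to 444 with it. Without library 2 of WT Tm, 1003 genes were called for Tm in WT, in place of 1772. The WT Tm repeats were the least alike of all groups. Their pairs had a chi-square over degrees of freedom of 8.955 to 12.1, and the highest in any other group was 5.80. All comparisons with WT Tm rest on these libraries.

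The promoters of the 4 tested genes are shown because these genes moved in the comparisons below, and because the W box, the element bound by WRKY transcription factors, is a common element of immune gene promoters. Each window runs from 250 bases before to 50 bases after the annotated start and was taken from RefSeq (TAIR10.1), in which NHL10 is listed as YLS9 and PR2 as BGL2. Capitals mark W boxes (TTGACC or TTGACT, searched on both strands, so that they also appear as GGTCAA or AGTCAA).
PAD4, AT3G52430, chr3:19430845-19431144, plus strand: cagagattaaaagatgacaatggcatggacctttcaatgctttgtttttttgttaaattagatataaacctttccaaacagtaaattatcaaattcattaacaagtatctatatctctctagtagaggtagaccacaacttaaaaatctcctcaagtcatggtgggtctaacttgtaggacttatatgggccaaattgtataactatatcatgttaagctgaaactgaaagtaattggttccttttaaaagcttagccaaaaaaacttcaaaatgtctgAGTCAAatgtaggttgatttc
PR5, AT1G75040, chr1:28177420-28177719, plus strand: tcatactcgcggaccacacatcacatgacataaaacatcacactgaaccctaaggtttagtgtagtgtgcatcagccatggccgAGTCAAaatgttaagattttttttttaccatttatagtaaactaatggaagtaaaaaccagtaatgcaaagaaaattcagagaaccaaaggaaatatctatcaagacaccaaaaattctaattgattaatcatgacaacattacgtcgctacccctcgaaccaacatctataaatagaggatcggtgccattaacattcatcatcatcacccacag
NHL10, AT2G35980, chr2:15110242-15110541, plus strand: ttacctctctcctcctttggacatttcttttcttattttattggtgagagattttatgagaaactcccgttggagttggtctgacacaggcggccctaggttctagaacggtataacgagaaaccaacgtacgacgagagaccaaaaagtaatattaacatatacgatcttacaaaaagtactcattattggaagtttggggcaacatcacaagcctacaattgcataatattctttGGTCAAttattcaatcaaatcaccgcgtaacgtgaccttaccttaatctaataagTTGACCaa
FRK1, AT2G19190, chr2:8329895-8330194, minus strand: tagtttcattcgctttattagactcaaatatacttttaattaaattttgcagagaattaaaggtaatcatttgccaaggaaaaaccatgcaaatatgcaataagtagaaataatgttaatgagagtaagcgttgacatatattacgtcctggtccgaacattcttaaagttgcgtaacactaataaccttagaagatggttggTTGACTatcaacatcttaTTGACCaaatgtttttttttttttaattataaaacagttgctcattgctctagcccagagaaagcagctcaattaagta

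FRK1 and NHL10 had 2 W boxes each, and those of FRK1 lay 47 to 42 and 29 to 24 bases before the start. Those of NHL10 lay 13 to 8 bases before the start and at bases 43 to 48 after it. PAD4, PR5, EDS1 and PR2 had 1 each, PR1 and PNP-A had no match in this window, and 32.4% of 27443 promoters of protein-coding genes held at least 1. The W boxes of PAD4 and PR2 lay after the start, at bases 30 to 35 and 39 to 44. Those of PR5 and EDS1 lay 166 to 161 and 97 to 92 bases before it. PNP-A held the TGA element (TGACG) and PR2 the G box (CACGTG), which 23.1% and 7.68% of all promoters also held. None of the 8 windows held the ER stress element (ERSE), which 0.849% of all promoters held. A match is a description of letters and not of binding. The loci of 7 of the 8 genes overlap no other annotated gene. FRK1, on the minus strand, overlaps AT2G19180 on the plus strand. Whether counting used the strand is not given in the sources used here, and reads of FRK1 and AT2G19180 cannot be told apart.

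Of the 4 genes below the test's minimum, PR2, a beta-1,3-glucanase, had 0 counts in all 36 libraries. It has 2 transcript models, and reads shared by models were set aside as ambiguous, so a count of 0 does not show that PR2 RNA was absent. EDS1, also with 2 models and with a near-identical neighbouring copy, had 0 to 8 counts per library and no group stood apart from the next in the order of means. Its highest counts, 4, 1 and 8, were in WT AZC, against 1, 1 and 0 in WT mock, a ratio of 6.64 with a 95% counting interval of 1.5 to 60.6. In CPM the groups did not overlap, but the lowest WT AZC library (0.70 CPM) and the highest WT mock library (0.691 CPM) held 1 count each, and with no filter on low counts the difference did not pass (adjusted p = 0.176).

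PR1, a secreted antimicrobial protein and the classical salicylate marker, is a gene with 1 model. Library 2 of bzip17/28 Tm held 8 counts of PR1 (3.05 CPM), while libraries 1 and 3 of that group held 0, and no other library of the study held more than 2. A floor of 3 counts in 1 library corresponds to 1.03 to 2.38 CPM, so a lower level of PR1 was not detectable at this depth. Counting intervals and floors here cover counting error only, and no source used here mentions molecular identifiers.

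PNP-A, a small secreted natriuretic-like peptide induced by salicylate, was also read from 1 model. It had 10, 22 and 4 counts in bzip17/28 Tm and 2, 4 and 5 in bzip17/28 mock. The other 10 groups had 0 to 2 counts in each library. In CPM the bzip17/28 Tm libraries were at 4.66, 8.39 and 1.37. The 2 highest were above all other libraries of the study, while library 3 lay among those of bzip17/28 mock and below a WT DTT library at 1.59 CPM. The ratio of bzip17/28 Tm (36 counts) to WT Tm (2 counts) was 10.2 (95% counting interval 2.64 to 87.9), and with no filter on low counts edgeR gave a log2 fold change of 3.26 ± 0.89 (SE, n = 3 per group, adjusted p = 0.00254). Under mock, bzip17/28 (11 counts) against WT (2 counts) gave a ratio of 3.85 with an interval of 0.840 to 35.7, which includes 1. Library 2 of bzip17/28 Tm, the one with the PR1 counts, was also the highest library of its group for PNP-A and NHL10.

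**Figure D1:**
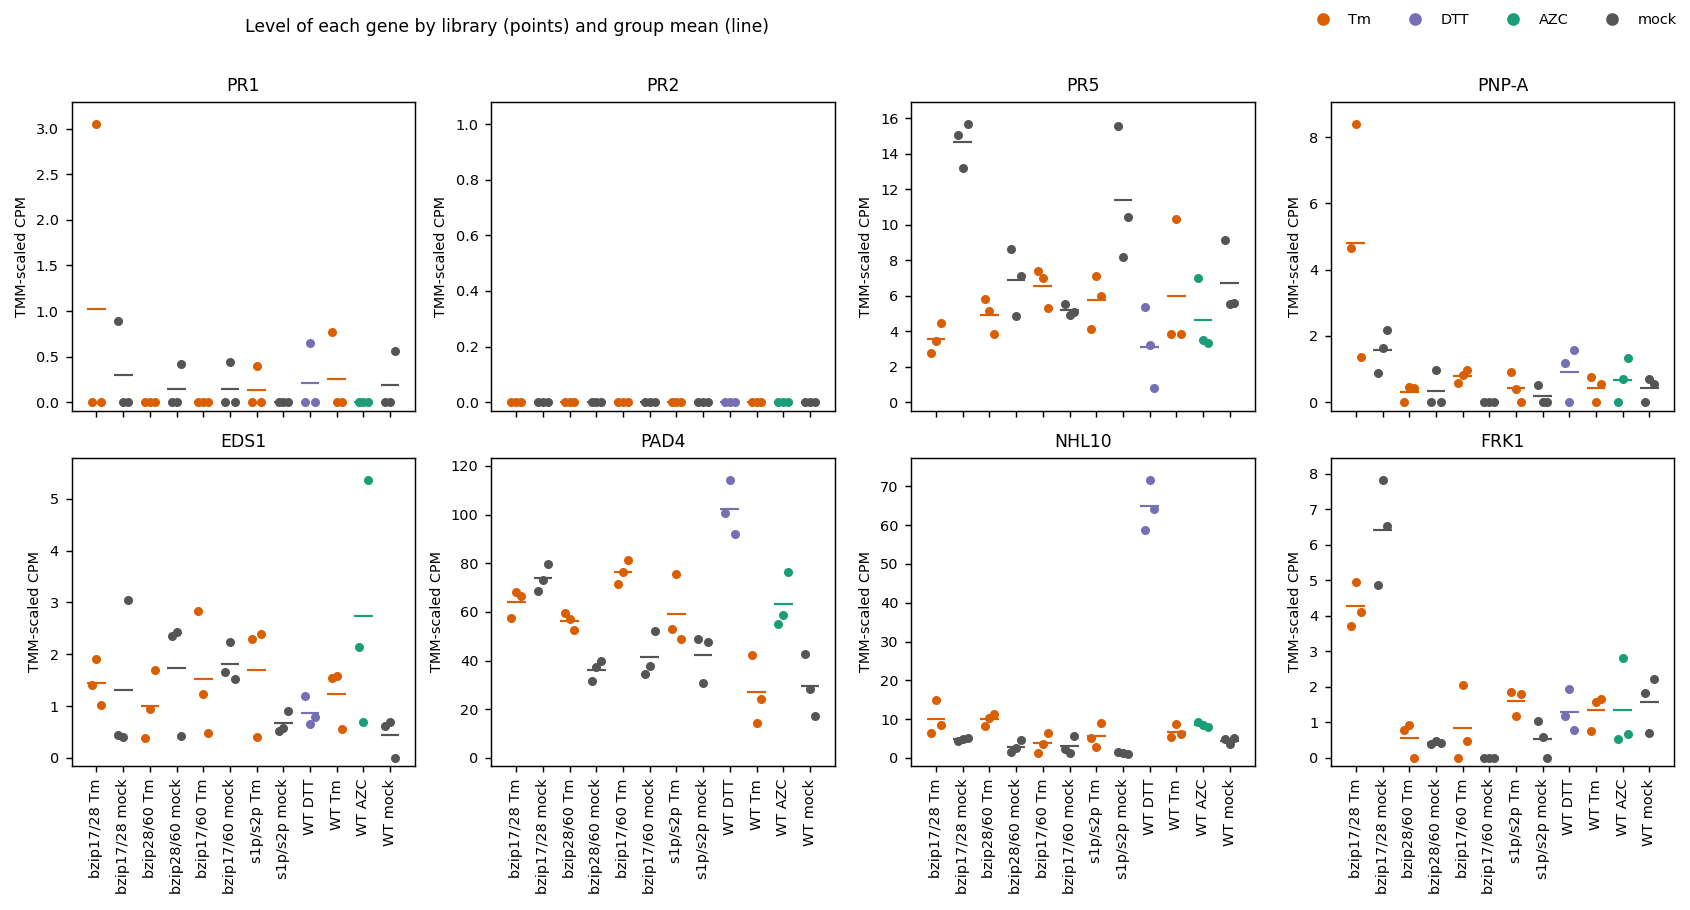
Level of the 8 genes in TMM-scaled CPM (vertical axes, linear and different for each gene) in 3 libraries (points) of each of 12 groups, with the group mean as a line. NHL10 and PAD4 are highest in WT DTT, PR5 and FRK1 in bzip17/28 mock and PNP-A in bzip17/28 Tm, and PR2 is at 0 throughout.

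Unstressed bzip17/28 seedlings had higher levels of PAD4, PR5 and FRK1 than unstressed WT, a comparison that shows the state of the immune genes without an inducer. PAD4 was at 68.7, 72.9 and 79.7 CPM in bzip17/28 mock, against 42.6, 28.3 and 17.3 CPM in WT mock. All bzip17/28 libraries were above all WT libraries, and the log2 fold change was 1.33 ± 0.23 (SE, n = 3 per group, edgeR quasi-likelihood test, adjusted p = 6.34e-05). FRK1, a receptor-like kinase gene rapidly induced by flagellin, had 11, 19 and 15 counts (4.87, 7.83 and 6.53 CPM) in bzip17/28 mock, against 3, 1 and 4 counts (1.82, 0.691 and 2.23 CPM) in WT mock. The groups did not overlap, and the ratio of summed counts was 3.94 with a 95% counting interval of 1.84 to 9.67. FRK1 entered the test only through bzip17/28: 4 libraries, 3 of bzip17/28 mock and 1 of bzip17/28 Tm, were over the filter's level of 4.97 CPM. For the filter CPM is scaled by library size alone, without the TMM factors of the values given here. The fitted value of FRK1 (log2 fold change 1.94 ± 0.53, adjusted p = 0.00857) is therefore tied to the filter, and with no filter it was 1.97 ± 0.59 (adjusted p = 0.0161).

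PR5, a thaumatin-like secreted protein, was at 15.1, 13.2 and 15.7 CPM in bzip17/28 mock, against 9.12, 5.53 and 5.58 CPM in WT mock. It too did not overlap between the groups, with a log2 fold change of 1.11 ± 0.33 (adjusted p = 0.0139), and this call was lost without library 2 or 3 of WT mock (adjusted p = 0.0546 and 0.0817). NHL10, an NDR1/HIN1-like membrane protein gene induced by flagellin, did not pass in this comparison: it was at 4.43, 4.95 and 5.22 CPM in bzip17/28 mock, against 4.87, 3.46 and 5.02 CPM in WT mock. Of the 3 genes whose testing did not depend on bzip17/28, 2 were called (PAD4 and PR5), against 18.1% of all genes tested. With library size alone in place of TMM factors the median of all genes moved by 0.109 in this comparison.

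Other salicylate genes were also higher in bzip17/28 mock than in WT mock. Over the 4 pathway lists 16 of 48 genes were called (33.3%), 14 of them higher, against 18.1% of all genes. These lists were chosen with earlier results of these data known. Of 12 tested genes of salicylate synthesis and regulation, 5 were higher and 0 lower, led by UGT76B1, a glucosyltransferase of immune signals (45.3 ± 10.5 CPM in bzip17/28 mock and 16.1 ± 3.21 CPM in WT mock, SD, n = 3 each), the salicylate pathway exporter EDS5 (22.0 ± 6.19 and 5.85 ± 1.25 CPM in the same order) and SARD4, which acts in pipecolate synthesis (22.6 ± 4.64 and 9.15 ± 4.99 CPM). Leaving out 1 library at a time gave 3 or 4 called genes in this list, and SARD4 was lost without library 3 of WT mock (adjusted p = 0.0603). Of 9 tested genes of salicylate perception and targets, 4 were higher and 1 lower. The glutaredoxin GRX480 had a log2 fold change of 2.45 ± 0.31 (adjusted p = 2.07e-07), the transcription factor WRKY70 one of 1.62 ± 0.22 (adjusted p = 1.02e-06) and the NPR1 interactor NIMIN2 one of 1.86 ± 0.29 (adjusted p = 8.37e-06). The median log2 fold change of that list was 1.5, against 0.00105 for all genes.

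GRX480 was at 44.3, 52.8 and 60.1 CPM in bzip17/28 mock, against 7.91, 3.46 and 16.2 CPM in WT mock, with no overlap. The gene that fell was TGA3, a bZIP factor that binds with NPR1 (log2 fold change -0.54 ± 0.17, adjusted p = 0.0255), named after its value was seen. Of 14 pattern receptors and kinases, 4 were higher and 0 lower: PUB22 (1.23 ± 0.25), PUB23 (1.28 ± 0.32), SOBIR1 (0.69 ± 0.19) and, named after its value was seen, PUB24 (1.39 ± 0.39). PUB22, PUB23 and PUB24 are ubiquitin ligases that dampen pattern signalling, and SOBIR1 is an adaptor kinase of receptor-like proteins. Without library 3 of WT mock this list had 2 genes called and PUB23 was lost (adjusted p = 0.0776). Among 13 pattern response markers, IOS1, a malectin-like receptor kinase, was higher (1.33 ± 0.34, adjusted p = 0.00478) and PHI-1 lower (-1.82 ± 0.22, adjusted p = 9.99e-08).

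Cell type markers were read beside these calls. The root markers summed to 170 to 209 CPM in bzip17/28 mock and 155 to 182 CPM in WT mock, and 0 of 8 was called in either direction. The green shoot markers summed to 10460 to 11360 CPM in bzip17/28 mock and 12060 to 12410 CPM in WT mock, with 1 of 7 higher and 2 lower. Their part in the result was not tested.

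**Figure D2:**
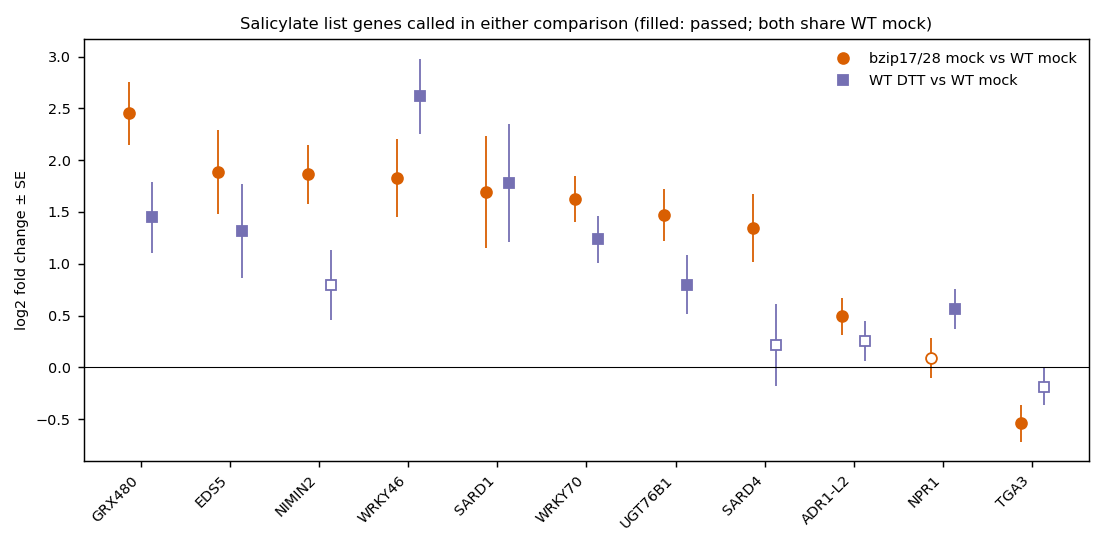
Log2 fold change ± SE (vertical axis, n = 3 libraries per group) of the genes of both salicylate lists called in bzip17/28 mock against WT mock (circles) or in WT DTT against WT mock (squares). Filled symbols passed, and both comparisons share the WT mock libraries. GRX480 stands at 2.45 in bzip17/28 mock and WRKY46 at 2.62 with DTT.

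The other mutants were compared with WT under mock in the same way. In bzip28/60, 0 of the 4 tested genes were called, against 5.35% of all genes. FRK1 had 1 count in each bzip28/60 mock library, against 3, 1 and 4 in WT mock, a ratio of 0.262 with a 95% counting interval of 0.0447 to 1.09. In s1p/s2p, 0 of 4 were called, against 7.39% of all genes: NHL10 was at 1.55, 1.17 and 0.906 CPM in s1p/s2p mock, all below the 4.87, 3.46 and 5.02 CPM of WT mock, with a log2 fold change of -1.86 ± 0.63 (adjusted p = 0.0612, and 0.0474 with no filter on low counts). FRK1 also leaned lower (-1.555 ± 0.877, adjusted p = 0.313). PR5 and PAD4 leaned higher in s1p/s2p mock, with libraries that overlapped those of WT mock (0.75 ± 0.34 and 0.55 ± 0.25, adjusted p = 0.189 and 0.186). PAD4 passed there without library 1 of WT mock (adjusted p = 0.0467).

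In bzip17/60 mock, FRK1 had 0 counts in all 3 libraries, against 3, 1 and 4 counts in WT mock. The counting interval of the ratio of summed counts was 0 to 0.476. A floor of 3 counts over the group would place it 3.28-fold lower, but that value leaves out the counting error of WT mock and is not a bound. FRK1 was the only one of the 4 called there (adjusted p = 0.0210), against 8.31% of all genes. This call was lost without any of 5 libraries (all but library 2 of WT mock, adjusted p = 0.0546 to 0.0909), and DESeq2 gave no adjusted p at this level. Of the 48 tested genes of the 4 pathway lists, 1, 3 and 0 were called in bzip28/60, bzip17/60 and s1p/s2p against WT under mock (2.08%, 6.25% and 0%). The all-gene counts behind these background shares depend on single libraries: leaving out 1 gave 226 to 421 in place of 561 genes for bzip28/60, 418 to 795 in place of 871 for bzip17/60 and 435 to 625 in place of 774 for s1p/s2p. GRX480 was lower in bzip28/60 (-2.99 ± 0.57, adjusted p = 9.61e-04) and in bzip17/60 (-1.5 ± 0.47, adjusted p = 0.0393), where WRKY70 was higher (0.71 ± 0.23) and PEN3, an ABC transporter of indole defence compounds, lower (-0.52 ± 0.14). The bzip17/60 calls of GRX480, WRKY70 and PEN3 were lost without any of 5, any of 4 and 1 of the 6 libraries, and WRKY70 also with the repeat number as a block, loci of 1 model, only the libraries compared or a spread per group (adjusted p = 0.0585, 0.0624, 0.0955 and 0.0609). The bzip17/60 call of GRX480 was also lost with a spread per group (adjusted p = 0.115).

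DTT raised NHL10 and PAD4 in WT. NHL10 stood at 58.7, 71.7 and 64.3 CPM in WT DTT, against 4.87, 3.46 and 5.02 CPM in WT mock. These 3 DTT libraries were above all 33 other libraries of the study, of which the highest was library 2 of bzip17/28 Tm at 14.9 CPM. The log2 fold change was 3.83 ± 0.33 (SE, n = 3 per group, edgeR adjusted p = 4.17e-12). PAD4 stood at 101, 114 and 92.1 CPM in WT DTT, against 42.6, 28.3 and 17.3 CPM in WT mock, also without overlap with any other library (log2 fold change 1.81 ± 0.24, adjusted p = 1.29e-07).

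The salicylate marker PR5 was not called with DTT: it had 9, 5 and 1 counts in WT DTT, against 15, 8 and 10 in WT mock (log2 fold change -1.01 ± 0.46, adjusted p = 0.132). The DTT libraries of PR5 were at 5.34, 3.23 and 0.794 CPM and did not overlap the mock libraries, at 9.12, 5.53 and 5.58 CPM. FRK1 had 2, 3 and 1 counts in WT DTT, against 3, 1 and 4 in WT mock, and overlapped. With DTT 2 of the 4 tested genes were called, both higher, against 15.9% of all genes, and the median log2 fold change was 0.76 over the 4, against -0.02 over all genes.

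The pathway lists held further rises with DTT, with 20 of 48 genes called (41.7%), all higher, against 15.9% of all genes called in either direction. Of 13 pattern response markers 7 were higher and 0 lower, led by the defence regulator WRKY33 (136 ± 36.3 CPM in WT DTT and 23.8 ± 3.79 CPM in WT mock, SD, n = 3 each), NHL3 (406 ± 60.1 and 221 ± 9.90 CPM in the same order), which is related to NHL10, and PROPEP3, the precursor of a danger peptide (16.5 ± 2.27 and 1.27 ± 0.744 CPM). PROPEP3 in WT mock lay under the filter's level of 4.97 CPM, so it was tested through groups where it was higher. Of 14 receptors and kinases 6 were higher, led by the oxidase RBOHD (1.39 ± 0.31, adjusted p = 0.00117), PUB23 (1.31 ± 0.33) and the kinase MPK3 (0.86 ± 0.22). Without library 3 of WT DTT this count was 3, and PUB23 was lost without library 3 of WT mock (adjusted p = 0.0729). FLS2, the flagellin receptor, was tested in this list and was not called. Of 9 salicylate perception and target genes 4 were higher: WRKY46 (2.62 ± 0.37, adjusted p = 5.87e-07), WRKY70 (1.24 ± 0.23), GRX480 (1.45 ± 0.34) and, named after its value was seen, the salicylate receptor NPR1 (0.57 ± 0.19).

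Salicylate synthesis and regulation had 3 of 12 genes higher with DTT: SARD1, a transcription factor of salicylate synthesis (1.78 ± 0.57), EDS5 (1.31 ± 0.45) and UGT76B1 (0.80 ± 0.28). Their adjusted p ran from 0.0255 to 0.0457, each was lost without at least 3 of the 6 libraries, and 0 was called without library 1 of WT mock. With a spread per group SARD1, EDS5 and UGT76B1 were lost too (adjusted p = 0.0519, 0.1 and 0.0658). Root markers moved with DTT: all 8 were lower, and they summed to 12.7 to 23.9 CPM in WT DTT, against 155 to 182 CPM in WT mock. Green shoot markers summed to 10960 to 11870 CPM in WT DTT and 12060 to 12410 CPM in WT mock, with 0 of 7 called. Their part in the rise of NHL10, PAD4 and the list genes was not tested, and in whole seedlings fewer cells of a type and less RNA per cell cannot be told apart.

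With AZC, PAD4 was at 54.8, 58.8 and 76.5 CPM in WT AZC, against 42.6, 28.3 and 17.3 CPM in WT mock, and did not overlap (log2 fold change 1.11 ± 0.24, adjusted p = 0.00225). The call was lost without library 3 of WT mock (adjusted p = 0.0632). It was the only one of the 4 genes called, against 5.49% of all genes. NHL10, at 9.14, 8.40 and 8.05 CPM in WT AZC, was also above all 3 WT mock libraries but did not pass (log2 fold change 0.92 ± 0.44, adjusted p = 0.273). Of the pathway lists, pattern response markers had 4 of 13 higher, NHL3 (0.76 ± 0.12), PROPEP3 (2.39 ± 0.60), the ethylene response factor ERF104 (0.78 ± 0.20) and, named after its value was seen, WRKY33 (1.13 ± 0.31), and 1 was called without library 1 of WT mock. The other 3 lists had 0 called. PROPEP3 was tested through groups above WT mock, as stated for DTT. Root markers were lower for 6 of 8, at 95.7 to 117 CPM in WT AZC, against 155 to 182 CPM in WT mock, and their part was not tested.

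Tm moved none of the 4 tested genes past the threshold in WT, against 16.9% of all genes. PAD4 was at 42.4, 14.3 and 24.2 CPM in WT Tm, against 42.6, 28.3 and 17.3 CPM in WT mock, and its libraries spread widely in both groups (log2 fold change -0.12 ± 0.28, adjusted p = 0.807). NHL10, at 5.39, 8.71 and 6.06 CPM in WT Tm, lay just above the 3.46 to 5.02 CPM of WT mock (adjusted p = 0.453). Of the 48 tested genes of the 4 pathway lists 8 were called with Tm in WT (16.7%), a share like the 16.9% of all genes. Among them, MPK3 (1.33 ± 0.22, adjusted p = 2.96e-05) and SOBIR1 (0.59 ± 0.20) of the 14 receptors and kinases were higher, as were 4 of 13 response markers, led by WRKY33 (1.89 ± 0.30, adjusted p = 1.84e-05), NHL3 (0.57 ± 0.12) and ERF104 (0.67 ± 0.20). GRX480 was lower (-2.18 ± 0.57), NPR1 higher (0.56 ± 0.19) and the 12 salicylate synthesis genes had 0 called. Several of these calls rest on single libraries: SOBIR1 and ERF104 were lost without any of 3 and any of 4 of the 6 libraries, NPR1 without any of 4, and GRX480 without library 3 of WT mock. SOBIR1 and NPR1 were also lost with no filter, only the libraries compared or a spread per group (adjusted p = 0.116 to 0.296). ERF104 was lost with only the libraries compared or a spread per group (adjusted p = 0.202 and 0.119). NHL3 was lost with only the libraries compared (adjusted p = 0.151) and GRX480 with a spread per group (adjusted p = 0.273).

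Set against each other, the inducers differed in NHL10 and PAD4. DTT was above Tm for both (log2 differences 3.27 ± 0.32, adjusted p = 1.69e-10 for NHL10, and 1.93 ± 0.24, adjusted p = 8.00e-08 for PAD4), 2 of the 4 genes against 24.2% of all genes. DTT was also above AZC for NHL10 (2.91 ± 0.30, adjusted p = 4.33e-10) and PAD4 (0.70 ± 0.21, adjusted p = 0.0186), again 2 of 4, against 17.5% of all genes. The PAD4 call against AZC was lost without library 1 or 2 of either group (adjusted p = 0.0501 to 0.113). Tm was below AZC for PAD4 (-1.23 ± 0.25, adjusted p = 4.56e-04), 1 of 4, against 18.5% of all genes. The inducers act by different chemistry and were given at 1 dose each, so these are differences between the treatments as given.

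**Figure D3:**
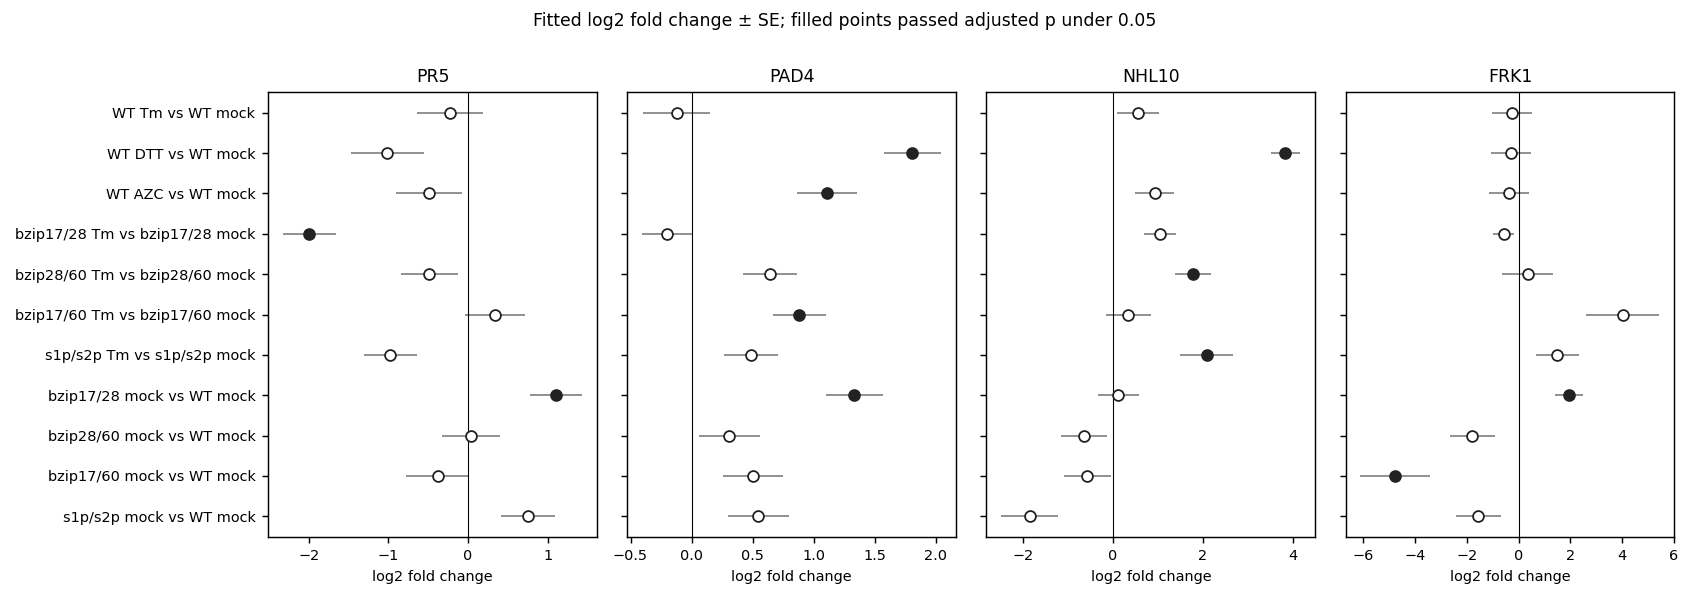
Fitted log2 fold change ± SE (horizontal axes, each gene on its own scale, n = 3 libraries per group) of the 4 tested genes in 11 comparisons with a mock group. Filled points passed at an adjusted p under 0.05. NHL10 reaches 3.83 with DTT in WT, and PR5 stands at -1.99 with Tm in bzip17/28. The outermost FRK1 values, both in comparisons with bzip17/60 mock, rest on libraries at 0 counts and are not measures of size.

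Within bzip17/28, Tm lowered PR5. It was at 2.80, 3.43 and 4.46 CPM in bzip17/28 Tm, against 15.1, 13.2 and 15.7 CPM in bzip17/28 mock, with no overlap (log2 fold change -1.99 ± 0.33, adjusted p = 1.73e-05). PAD4, in contrast, was at 57.3, 68.3 and 66.5 CPM in bzip17/28 Tm, against 68.7, 72.9 and 79.7 CPM in bzip17/28 mock, and was not called (-0.20 ± 0.20, adjusted p = 0.641). NHL10 was at 6.52, 14.9 and 8.58 CPM in bzip17/28 Tm, all above the 4.43 to 5.22 CPM of bzip17/28 mock, and missed the threshold narrowly (1.04 ± 0.36, adjusted p = 0.0503). NHL10 passed with library size alone, no filter, only the libraries compared or a spread per group (adjusted p = 0.0354 to 0.0436). The repeat number as a block and loci of 1 model also gave a call (adjusted p = 0.0468 and 0.0448). Over all alternatives its adjusted p ran from 0.0254, without library 1 of bzip17/28 Tm, to 0.397. In all, 1 of the 4 was called, against 11.6% of all genes. GRX480 and WRKY70 were not called with Tm in this mutant: GRX480 was at 50.3, 49.97 and 42.2 CPM in bzip17/28 Tm, against 44.3, 52.8 and 60.1 CPM in bzip17/28 mock.

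The Tm response of PR5 in bzip17/28 was set against that in WT in a test of the difference. PR5 was at 3.85, 10.3 and 3.86 CPM in WT Tm, against 9.12, 5.53 and 5.58 CPM in WT mock. The difference of responses was -1.77 ± 0.54 (log2, adjusted p = 0.0516), so 0 of the 4 genes passed, against 4.12% of all genes. It passed with the repeat number as a block (adjusted p = 0.0497), with loci of 1 model alone (0.0493) and without library 1 of WT mock or library 1 or 3 of WT Tm (0.0227 to 0.0457). Over all alternatives the adjusted p ran from 0.0227 to 0.333.

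In the other mutants Tm raised NHL10 or PAD4. NHL10 was at 8.17, 10.3 and 11.4 CPM in bzip28/60 Tm, against 1.56, 2.42 and 4.61 CPM in bzip28/60 mock, without overlap (log2 fold change 1.78 ± 0.40, adjusted p = 0.00689). It was 1 of 4 called, against 2.42% of all genes, and was lost without library 1 of bzip28/60 mock (adjusted p = 0.0967). In s1p/s2p, NHL10 was at 5.06, 2.76 and 8.97 CPM with Tm, against 1.55, 1.17 and 0.906 CPM in mock (2.08 ± 0.58, adjusted p = 0.0309), again 1 of 4, against 3.6% of all genes. The s1p/s2p call rests on 7 counts in the mock group and was lost without any of 5 of the 6 libraries (adjusted p = 0.0558 to 0.213).

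PAD4 was at 71.6, 76.4 and 81.5 CPM in bzip17/60 Tm, against 34.3, 37.9 and 52.1 CPM in bzip17/60 mock (log2 fold change 0.88 ± 0.22, adjusted p = 0.0115), 1 of 4 against 3.2% of all genes. The groups did not overlap, and the call was lost without library 1 or 2 of bzip17/60 mock or library 3 of bzip17/60 Tm (adjusted p = 0.0774 to 0.0982). In bzip28/60, PAD4 was at 59.5, 57.1 and 52.6 CPM with Tm, all above the 31.7 to 39.8 CPM of mock, and did not pass (0.64 ± 0.22, adjusted p = 0.139). There PAD4 passed with no filter, only the libraries compared or a spread per group (adjusted p = 0.032, 0.0033 and 0.0192). Over all alternatives its adjusted p ran from 0.0033 to 0.470. In s1p/s2p it was at 52.9, 75.7 and 49.0 CPM with Tm, above the 48.7, 30.9 and 47.6 CPM of mock, and did not pass either (adjusted p = 0.331). FRK1 had 0, 5 and 1 counts in bzip17/60 Tm, against 0 in all 3 bzip17/60 mock libraries, and the groups overlapped.

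PR5 in s1p/s2p was at 4.14, 7.10 and 5.98 CPM with Tm, below the 15.5, 8.16 and 10.4 CPM of mock, and did not pass (-0.98 ± 0.34, adjusted p = 0.112).

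Inside the mutants Tm moved 6, 1, 0 and 2 of the 48 list genes in bzip17/28, bzip28/60, bzip17/60 and s1p/s2p (12.5%, 2.08%, 0% and 4.17%), shares near the 11.6%, 2.42%, 3.2% and 3.6% of all genes. In bzip17/28, 3 of 13 pattern response markers were higher, WRKY33 (1.92 ± 0.26, adjusted p = 3.87e-07), WRKY22 (0.80 ± 0.20) and NHL3 (0.36 ± 0.12), while TGA3 was higher (0.76 ± 0.17) and DMR6, a salicylate hydroxylase, and the receptor kinase BIR1 were lower (-0.77 ± 0.22 and -0.55 ± 0.16). The NHL3 call was lost without any of 5 of the 6 libraries, those of BIR1, DMR6 and WRKY22 without any of 3, any of 2 and 1. NHL3 was also lost with relative log expression (RLE) factors, no filter or the repeat number as a block (adjusted p = 0.0601, 0.234 and 0.0556). BIR1 was lost with no filter (adjusted p = 0.0614). In s1p/s2p, WRKY33 (1.82 ± 0.29, adjusted p = 2.72e-05) and WRKY70 (0.85 ± 0.22) were higher, WRKY70 not without any of 3 libraries. In bzip28/60 the only call was WRKY18 (2.44 ± 0.57, lost without library 1 of either group), and bzip17/60 had 0 of 48. Root markers were lower with Tm for 4, 2, 2 and 3 of 8 in bzip17/28, bzip28/60, bzip17/60 and s1p/s2p, and green shoot markers for 0 of 7 in each. Their part was not tested.

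Tests of the difference from the WT Tm response called 0 of the 4 genes in bzip28/60, bzip17/60 and s1p/s2p, against 4.24%, 3.79% and 1.91% of all genes. The PAD4 response in bzip17/60 differed from that in WT by 1.01 ± 0.35 (log2, adjusted p = 0.0951), and passed with no filter (0.0173), by DESeq2 (0.0451) and without library 3 of WT mock or library 1 of WT Tm (0.0255 and 0.0066). The PAD4 response in bzip28/60 passed without library 1 of WT Tm (adjusted p = 0.0231). So the rises of NHL10 and PAD4 within these mutants are not shown to differ from the response of WT.

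PAD4 was higher in all 4 mutants than in WT when all had received Tm. Its levels were 57.3 to 68.3 CPM in bzip17/28 Tm, 52.6 to 59.5 CPM in bzip28/60 Tm, 71.6 to 81.5 CPM in bzip17/60 Tm and 49.0 to 75.7 CPM in s1p/s2p Tm, against 14.3 to 42.4 CPM in WT Tm, so no mutant library reached down to WT. The log2 fold changes were 1.26 ± 0.24, 1.07 ± 0.25, 1.51 ± 0.24 and 1.15 ± 0.25 for bzip17/28, bzip28/60, bzip17/60 and s1p/s2p, with adjusted p from 5.74e-06 to 0.00124, and these 4 calls were kept without any single library and under the other alternatives that gave a value (highest adjusted p 0.0454). All 4 share the WT Tm libraries, the repeats that were least alike. The part of reads on no feature, whose share differed between WT and mutant libraries, was not tested. Of 7 tested green shoot markers 4, 2, 1 and 1 were lower than in WT Tm, and of 8 root markers 1, 1, 2 and 5, in the same order of mutants, and their part was not tested. FRK1 was also higher in bzip17/28 Tm, with 8, 13 and 12 counts, against 1, 2 and 3 in WT Tm (1.60 ± 0.60, adjusted p = 0.0350), but, as under mock, it was tested only because of its level in bzip17/28, and the call was lost with no filter on low counts (adjusted p = 0.0732), by DESeq2 (adjusted p = 0.0863) and without any of 5 libraries.

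With FRK1 set aside in bzip17/28, PAD4 was the 1 gene called in each mutant, of 3 in bzip17/28 and of 4 in bzip28/60, bzip17/60 and s1p/s2p, against 35.4%, 23.5%, 35% and 31.3% of all genes, so these counts are near the shares of all genes. PR5 and NHL10 did not pass in any of these 4 comparisons. In the pathway lists, GRX480 stood at 50.3, 49.97 and 42.2 CPM in bzip17/28 Tm, against 0, 2.38 and 3.31 CPM in WT Tm (log2 fold change 4.49 ± 0.43, adjusted p = 5.32e-11), and the salicylate perception list had 6 of 9 higher and 0 lower in that mutant. In bzip17/60 Tm, 0 of 13 pattern response markers were higher and 9 lower than in WT Tm, WRKY33 among them (-2.08 ± 0.30, adjusted p = 7.43e-07). Without library 2 of WT Tm that count of 9 was 4. Over the 4 lists 21 of 48 genes (43.8%) were called in bzip17/28 Tm and 16 (33.3%) in bzip17/60 Tm, against the 35.4% and 35% of all genes. GRX480 and WRKY33 were named here after their values were seen.

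**Figure D4:**
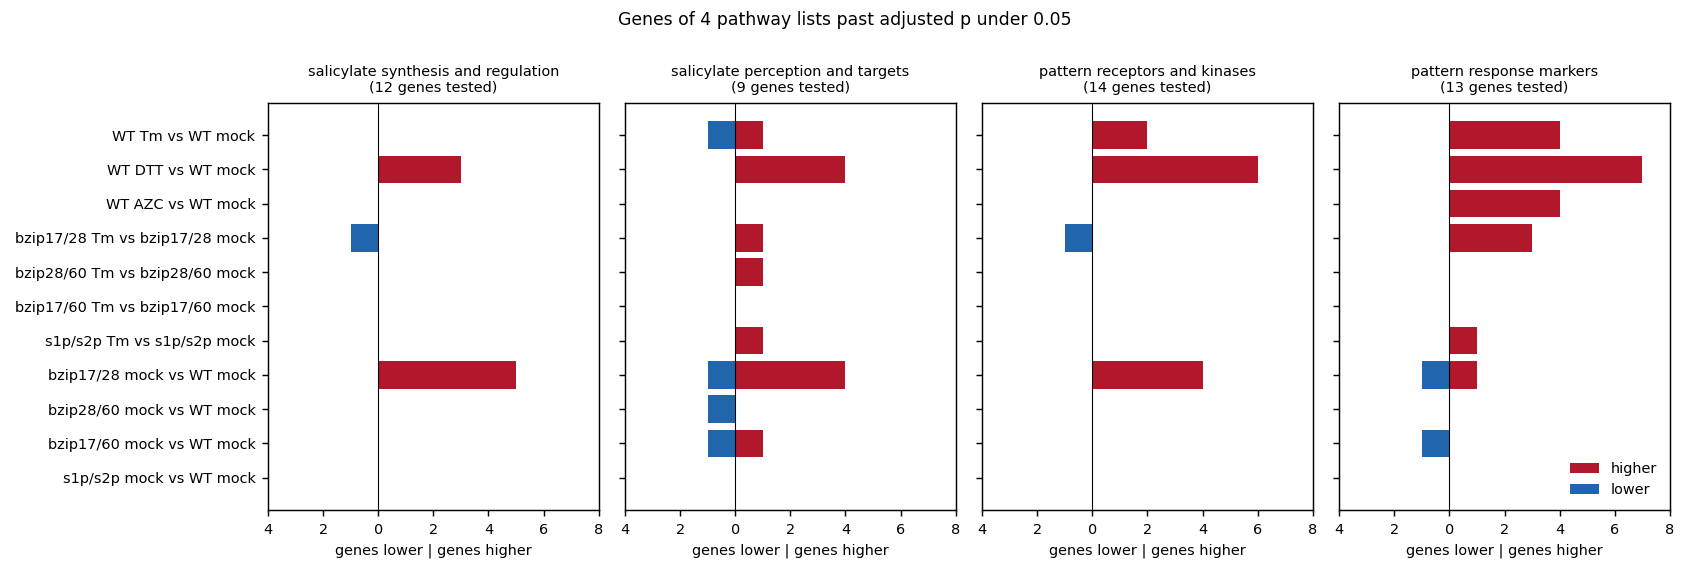
Number of genes past an adjusted p under 0.05 (horizontal axes, lower to the left, higher to the right) in 4 pathway lists of 12, 9, 14 and 13 tested genes, for 11 comparisons with a mock group. DTT in WT has 7 response markers higher, and bzip17/28 mock has 5 synthesis genes higher than WT mock.

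Ordered by mean level over the 12 groups, NHL10 ran from 64.9 ± 6.53 CPM in WT DTT to 1.21 ± 0.327 CPM in s1p/s2p mock (SD, n = 3). The first of these overlapped with no other group. The last did not overlap its neighbour, but a bzip17/60 mock library at 1.34 CPM and a bzip17/60 Tm library at 1.14 CPM lay below its highest library. PAD4 ran from 102 ± 11.2 CPM in WT DTT to 27.0 ± 14.2 CPM in WT Tm. WT DTT overlapped with no other group. Neighbours in the order of PAD4 also did not overlap after bzip17/28 mock and after bzip28/60 Tm, below which lay all mock groups but that of bzip17/28, and WT Tm. Other groups did overlap across these places. WT AZC reached 76.5 CPM, above the 68.7 CPM of a bzip17/28 mock library, and bzip17/60 mock reached 52.1 CPM, above the 49.0 CPM of an s1p/s2p Tm library. PR5 ran from 14.6 ± 1.29 CPM in bzip17/28 mock to 3.12 ± 2.27 CPM in WT DTT, and every neighbour in its order overlapped. FRK1 was highest in bzip17/28 mock (6.41 ± 1.48 CPM) and bzip17/28 Tm (4.27 ± 0.63 CPM), and the lowest library of these was above the highest, 2.80 CPM in WT AZC, of all other groups.

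Pearson's r of group mean log2 CPM between the tested genes, over the 12 groups, was highest for PAD4 and NHL10, at 0.54, and lowest for PR5 and NHL10, at -0.71. These are descriptions over 12 points that share 1 set of libraries. The tested genes most like NHL10 were CSLD2 (r = 0.96), TET8 (0.94) and DLAH (0.93). Those most like PAD4 were AT1G57700 (0.94), AT1G08050 (0.94) and ERF5 (0.94). FRK1 was most like AT3G46280 (0.95), RLP40 (0.94) and MYB2 (0.91), and PR5 most like AT5G58390 (0.88), OPT6 (0.86) and YSL1 (0.86), all over 12 groups.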

How the data were processed

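The authors deposited whole-number read counts per transcript model for each of 36 libraries, 58699 models of 37336 loci in each. The submitters' processing notes name HTSeq 0.6.0, SAMtools, TopHat2 2.1.1 and Trim Galore 0.2.8. Genome build, annotation release and strand setting are not given in the sources used here. Ambiguous reads, those matching several features, made up 39.9 to 42.8% of assigned plus ambiguous reads and are in no model's count, so loci with several models can be undercounted. Reads on no feature came to 2.69 to 6.32%. Library sizes leave out both lines.

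Counts were summed per locus. Genes passing edgeR's filterByExpr (minimum count 10) numbered 10480. All 36 libraries were fitted together in edgeR 4.0.16 (R 4.3.3, TMM factors, quasi-likelihood test, 24 residual degrees of freedom), with Benjamini-Hochberg adjustment over all genes and a threshold of 0.05, in 22 comparisons. Alternatives were: RLE factors, unscaled library size, no filter, DESeq2 1.42.0, only the libraries compared, a spread per group (limma 3.58.1, voom with a weight per group), the repeat number as a block, loci with 1 model, and leaving out each library. Same-numbered libraries did not deviate together (correlations -0.150 to 0.198, over 0.1 for every number in 0 of 18 comparisons), so numbers were not taken as pairs. No 2 repeats held identical counts.

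The members and lists were chosen with earlier results of these data known. Which list genes passed the filter only through groups where they were high was not checked. Of the 4 pathway lists (72 genes, 48 tested), the text names the 3 called genes with the lowest adjusted p per list and comparison with mock, others where stated, and for pattern likeness the 3 genes with the highest r.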

Additional observations from a re-analysis of the deposited data

How the results depend on the processing

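Of the counts of tested genes called, those that moved did so by a single gene. For Tm against mock in bzip17/28 the count was 2 in place of 1 with library size alone, with no filter on low counts, with only the libraries compared, with a spread per group, with loci of 1 model and with the replicate block. For Tm against mock in bzip28/60 it was 2 in place of 1 with no filter, with only the libraries compared and with a spread per group. For Tm against mock in s1p/s2p it was 0 in place of 1 with only the libraries compared, where NHL10 fell under the filter, and with a spread per group. For bzip17/60 against WT under mock it was 0 in place of 1 by DESeq2 and with only the libraries compared, where FRK1 had no adjusted p or fell under the filter. For s1p/s2p against WT under mock it was 1 in place of 0 with no filter. The difference of Tm responses from WT had 1 in place of 0 in bzip17/28 with the replicate block and with loci of 1 model, and 1 in place of 0 in bzip17/60 with no filter and by DESeq2. For bzip17/28 against WT under Tm it was 1 in place of 2 by DESeq2, with only the libraries compared and with a spread per group. The replicate block changed no other count of the 4 genes.

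Leaving out 1 library at a time gave 0 to 1 for AZC against mock in WT, for Tm against mock in bzip28/60, bzip17/60 and s1p/s2p, for bzip17/60 and for s1p/s2p against WT under mock, and for the difference of Tm responses of bzip17/28, bzip28/60 and bzip17/60 from WT. It gave 2 to 3 for bzip17/28 against WT under mock, and 1 to 2 for DTT against AZC, for Tm against mock in bzip17/28 and for bzip17/28 against WT under Tm. No called value changed sign.

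The count of all genes called moved by more than 1.5 times in 45 of the counts made without 1 library, and by less in the other 111. The ranges were 1003 to 2460 for Tm in WT, 366 to 544 in place of 575 for AZC in WT, 1179 to 2444 for Tm against AZC, 136 to 193 for Tm in bzip28/60, 183 to 351 in place of 335 for Tm in bzip17/60 and 1504 to 2847 for bzip28/60 against WT under Tm. For the differences of Tm responses they were 269 to 1084, 239 to 1188, 157 to 1190 and 83 to 992 (bzip17/28, bzip28/60, bzip17/60, s1p/s2p), each highest without library 1 of WT Tm. Restricting the fit to the libraries compared, or giving each group its own spread, changed it to 259 or 551 in place of 1772 for Tm in WT, 808 or 1096 in place of 2536 for DTT against Tm, 480 or 677 in place of 1940 for Tm against AZC, and 706 or 554 in place of 254 for Tm in bzip28/60. For the differences of Tm responses it was 132 or 206 in place of 432, 117 or 204 in place of 444, 14 or 110 in place of 397 and 7 or 29 in place of 200 (bzip17/28, bzip28/60, bzip17/60, s1p/s2p), with 409 for s1p/s2p with no filter and 316 by DESeq2. For the mutants against WT under Tm it was 1905 or 2066 in place of 3712, 813 or 1231 in place of 2462, 1665 or 1880 in place of 3664 and 1385 or 1696 in place of 3276. The cause was not tested. A fit with fewer libraries tests fewer genes with a spread of its own. Counts of 0 to 22 per library limit FRK1, PR1, PNP-A and EDS1.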
